A study of Mus musculus with 11 samples.

Results

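In young quiescent muscle stem cells, 437 sites carried H3K4me3 and H3K27me3 together and had no H3K27me3 at the same place in old quiescent cells. These sites are peaks of H3K4me3 in young quiescent satellite cells (QSCs) that overlapped, by 1 bp or more, an H3K27me3 peak of young QSCs and an H3K4me3 peak of young activated satellite cells (ASCs), and overlapped no H3K27me3 peak of old QSCs. They were therefore selected on 4 of the 8 peak lists, and the presence or absence of peaks in those 4 lists is a property of the selection. The 437 sites made up 1.77% of the 24701 H3K4me3 peaks of young QSCs and 14.2% (Wilson 95% interval 13.1 to 15.5) of the 3067 bivalent peaks that met the conditions in young cells. Without the condition on ASCs, 562 of the 3446 young QSC peaks with both marks (16.3%) had no H3K27me3 in old QSCs, and 125 of these lacked H3K4me3 in ASCs. The remaining 2630 of the 3067, which overlapped H3K27me3 in old QSCs as well, are called the retaining sites and serve as the comparison.

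Satellite cells are the stem cells of skeletal muscle, which rest in quiescence beside the muscle fibre and divide after injury. H3K4me3, the trimethylation of lysine 4 of histone H3, is found at the starts of genes that are transcribed or ready for transcription. H3K27me3, the trimethylation of lysine 27, is laid down by the Polycomb complex PRC2 and is linked to repression. Bivalent domains carry both marks and are known from stem cells, where they often lie at genes of developmental regulators that are kept silent but can still be turned on. H3K36me3, the third mark profiled, is deposited over the bodies of genes that are being transcribed.

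The QSCs were sorted from hindlimb muscle of male C57BL/6 mice as VCAM+/CD31-/CD45-/Sca1- cells, from young mice of 2 to 3 months and old mice of 22 to 24 months. For the ASCs, the sample labels describe young QSCs plated in culture for 3 days, whereas the methods of the study describe activation in injured muscle, so how the ASCs were obtained is not certain. There was 1 library for each cell state and mark, made from cells that were pooled until enough had been collected, and H3K36me3 was profiled in young cells only. With no replicates, no test between cell states was possible, and a difference between young and old QSCs cannot be told apart from a difference between 2 libraries. Intervals in the text are Wilson intervals for shares and order-statistic intervals for medians, both at 95%, and cover counting error over sites only.

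Each deposited list gives the position of a peak and a score, which is -10 times the logarithm to base 10 of the p-value from the peak caller, so that 50 stands for a p-value of 1e-05. Most of the highest scores are tied at 3100. Read depth was not recorded in the lists and is unknown. The H3K27me3 list of old QSCs held more peaks than that of young QSCs (17635 against 11658), but they were narrower (median 838 bp against 1228 bp) and covered less of the genome (16.9 Mb against 21.4 Mb). Of the H3K27me3 lists that of ASCs was the longest, with 38307 peaks over 48.9 Mb. The lists name no genes, so the cells could not be checked against marker genes, and positions are given in mm9 without annotation.

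The sites without old H3K27me3 had weaker and narrower H3K27me3 in young QSCs than the retaining sites. The median score of their young H3K27me3 peak was 125 (114 to 140), against 496 (459 to 530) at the retaining sites. Where a site touched more than 1 peak, as 33 of the 437 did, the widest was taken. Ranked within the young QSC list, the peaks stood at the median percentile 57.6, just above the middle of that list, while those of the retaining sites stood at 86.8. A score under 100 was found at 171 sites (39.1%), compared with 309 retaining sites (11.7%), and a score of 1000 or more at 24 sites (5.49%), compared with 829 retaining sites (31.5%). The young H3K27me3 peak was 1443 bp wide at the median (1336 to 1604), with quartiles at 957 bp and 2264 bp and extremes of 422 bp and 26702 bp. At the retaining sites the median was 2519 bp (2447 to 2613), and peaks over 3 kb were present at 42.2% of them against 16.2% of the sites without old H3K27me3.

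The share of bivalent peaks without old H3K27me3 fell at each step up the young H3K27me3 score. In the lowest decile it was 40.1% (34.7 to 45.6), in the middle deciles it was 11.1% and 7.82%, and in the highest decile it was 2.29% (1.11 to 4.65). By quintile, the share ran from 33.7% (30.1 to 37.5) through 20.1%, 9.45% and 5.55% to 2.45% (1.49 to 3.998). Width gave the same order, with 29.2% in the narrowest quintile and 4.41% in the widest. These are descriptions of the selection, since young and old H3K27me3 peaks both entered it.

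**Figure D1:**
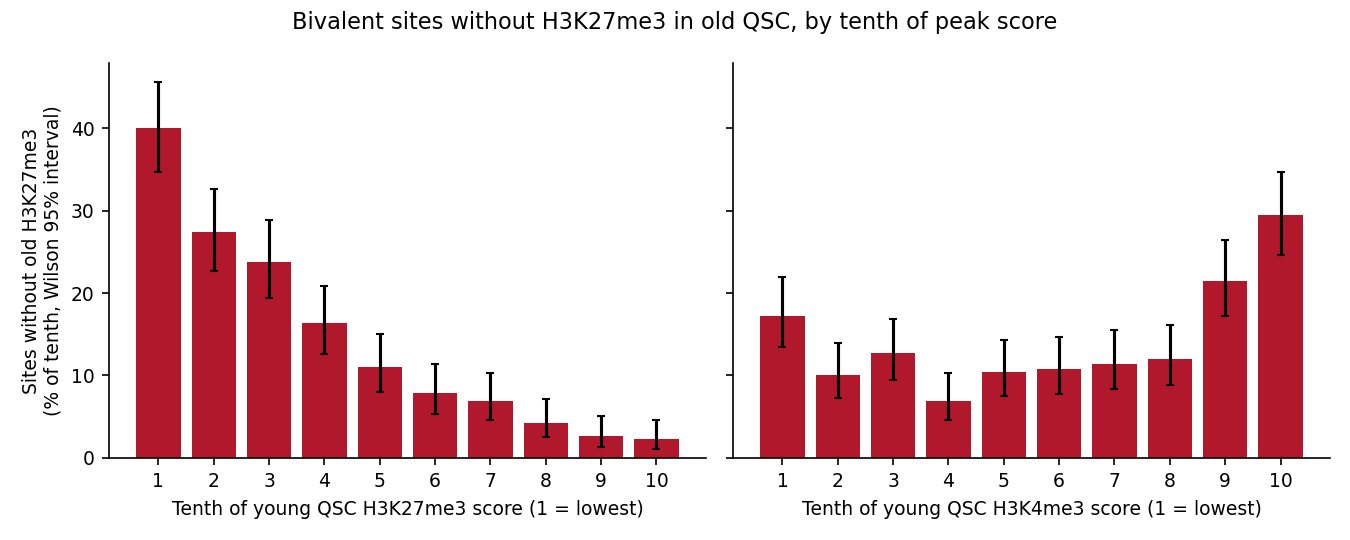
Share of the 3067 bivalent peaks that had no H3K27me3 in old QSCs, in percent, by decile of the young QSC H3K27me3 score (left) and of the young QSC H3K4me3 score (right); bars are shares and whiskers Wilson 95% intervals. On the left the share falls from 40.1% to 2.29%, and on the right it is highest in the top decile, at 29.4%.

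H3K4me3 followed another course. At the sites without old H3K27me3 the H3K4me3 peak was stronger than at the retaining sites, with a median score of 1103 (880 to 1242) against 619 (580 to 665), and a median percentile in the young QSC list of 59.1 against 50.7. It was also slightly wider, at 1581 bp (1521 to 1633) against 1452 bp (1422 to 1482), where all 24701 peaks had a median of 1362 bp. This width depended on the condition of H3K4me3 in ASCs. Without it, the median at bivalent peaks without old H3K27me3 was 1412.5 bp (1326 to 1504). The share of bivalent peaks without old H3K27me3 was highest among those with the strongest H3K4me3, at 25.4% (22.2 to 29.0) in the top quintile, while in the other quintiles it lay between 9.79% and 13.7%. Within the lowest quintile of H3K27me3 score, an H3K4me3 score of 1000 or more was reached by 54.6% (47.8 to 61.2) of the sites without old H3K27me3 and 36.9% (32.3 to 41.6) of the retaining sites. Among peaks in the highest quintile of H3K27me3 score the order was the other way, with 20.0% (7.05 to 45.2) against 38.8% (35.0 to 42.8), although the first value rests on 15 sites and the intervals overlap.

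The 2 marks also met in a different way. Young H3K27me3 covered a median of 53.8% (49.2 to 59.7) of the H3K4me3 peak at the sites without old H3K27me3, and all of it at the median retaining site. Only 60 of the 437 H3K4me3 peaks (13.7%) lay wholly inside H3K27me3, compared with 1524 of 2630 (57.9%). Less than 50% of the H3K4me3 peak was covered at 202 sites (46.2%), against 179 retaining sites (6.81%). At most of the sites without old H3K27me3 the H3K27me3 peak was narrower than the H3K4me3 peak it touched, being wider at only 46.0% of them but at 77.0% of the retaining sites.

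The difference in cover was present within quintiles of H3K27me3 score too, which describes the selection, since the young lists behind the cover entered it. Within the lowest score quintile, less than 50% was covered at 55.1% (48.3 to 61.7) of the sites without old H3K27me3 and at 26.0% (22.0 to 30.5) of the retaining sites. In the third quintile the shares were 32.8% (22.1 to 45.6) and 4.32% (2.92 to 6.34), and in the highest they were 33.3% (15.2 to 58.3) and 0.836% (0.358 to 1.94). An old peak was counted anywhere on the H3K4me3 peak, not only on the bases that young H3K27me3 covered. The cause of the difference in cover was not tested. The 202 sites with the smaller cover had H3K4me3 peaks of 1985 bp and a score of 1579 at the median, whereas the other 235 had 1414 bp and 607.

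**Figure D2:**
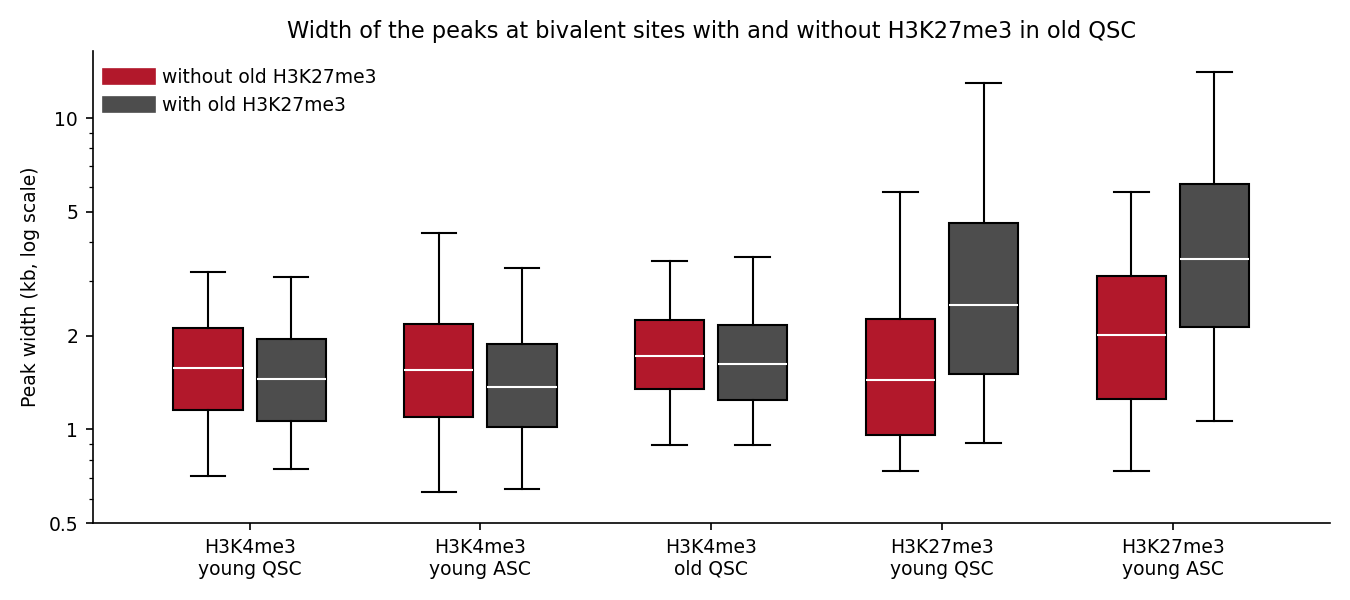
Peak widths in kb on a log scale for the sites without old H3K27me3 (red) and the retaining sites (grey) in 5 libraries; boxes span the quartiles, the line is the median and whiskers reach the 5th and 95th percentiles over the sites that have a peak in that library. H3K4me3 widths overlap closely, while H3K27me3 is narrower in young QSCs (median 1443 bp against 2519 bp) and young ASCs (2015 bp against 3520.5 bp).

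H3K27me3 in young ASCs was not part of the selection, and most of the sites had it. It was present at 353 of the 437 sites (80.8%, 76.8 to 84.2), compared with 2584 of the 2630 retaining sites (98.3%, 97.7 to 98.7), while 26% of all young QSC H3K4me3 peaks overlapped it. The 2 groups of bivalent sites thus both stood far above all H3K4me3 peaks, and the sites without old H3K27me3 stood below the retaining sites. The gap was present at matched H3K27me3 scores, with 76.3% (70.1 to 81.6) against 95.6% (93.1 to 97.2) in the lowest quintile and 82.8% (71.1 to 90.4) against 98.9% (97.7 to 99.5) in the third. In the highest quintile 14 of 15 sites had ASC H3K27me3, against every retaining site, with intervals of 70.2 to 98.8 and 99.4 to 100.

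Where it was present, ASC H3K27me3 ranked high in its own list, as it did at all young QSC H3K4me3 peaks that overlapped it, with a median percentile of 89.2. The median score at the 353 sites was 775 (588 to 889), which is percentile 91.3 of the ASC list, while the median at the retaining sites was at the 3100 ceiling and percentile 98.4. The ASC peak was wider than the young QSC peak at 234 of the 353 sites (66.3%, 61.2 to 71.0), with a median log2 ratio of widths of 0.28. At the retaining sites it was wider at 72.0%, with a median of 0.31. At these 353 sites H3K27me3 covered a median of 58.8% of the H3K4me3 peak in QSCs and 88.5% in ASCs. The sites thus included some with broad and high-ranking H3K27me3 in ASCs, such as chr17:34807888-34809993, where the peak measured 1600 bp at percentile 51.8 of its list in young QSCs and 2864 bp at percentile 96.5 in ASCs, and where the nearest old H3K27me3 peak was 60097 bp away.

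At 84 sites H3K27me3 was present in young QSCs only, being called in neither ASCs nor old QSCs. The median score of their young H3K27me3 was 98.1 (82.0 to 163) against 129 (117 to 145) at the 353 sites with ASC H3K27me3, a difference within the intervals, and it covered 39.6% (29.3 to 48.0) of the H3K4me3 peak against 58.8% (52.3 to 63.8). H3K4me3 differed between the 2 sets in ASCs. Of the 83 such sites with 1 ASC H3K4me3 peak, 54 (65.1%, 54.3 to 74.4) had a wider peak in ASCs than in QSCs, with a median log2 ratio over all 84 of 0.19. Of the 341 corresponding sites with ASC H3K27me3, 122 (35.8%, 30.9 to 41.0) had a wider peak, and the median log2 ratio was -0.09. The same split appeared among the retaining sites, where 36 of 45 without ASC H3K27me3 were wider (80.0%, 66.2 to 89.1) but only 36.9% of those with it, and 64.1% of all young QSC H3K4me3 peaks with 1 ASC peak were wider in ASCs. The share at the 84 sites was close to that of all H3K4me3 peaks, that at the retaining sites without ASC H3K27me3 was higher, and those at sites with ASC H3K27me3 were lower.

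Of these 84 sites, 2 (2.38%) had a young H3K27me3 score of 1000 or more. The 6 with the highest young H3K27me3 scores, chosen after the values were seen, included chr17:23876011-23878243, whose H3K4me3 peak scored 3142 and overlapped by 119 bp the edge of a 6416 bp H3K27me3 peak of score 2168. An old H3K27me3 peak lay 119 bp from this site and old peaks covered 65.5% of that young H3K27me3 peak, so the site itself lay outside a region that was still marked. At chr10:115022515-115023246 a 732 bp H3K4me3 peak of score 66.0 sat inside a 7229 bp H3K27me3 peak, and H3K4me3 measured 3322 bp (score 3185) in ASCs and 2223 bp (score 1550) in old QSCs. A pair of neighbouring sites, chr2:92871840-92873505 and chr2:92885219-92887068, carried young H3K27me3 peaks of 6190 bp (score 990) and 3655 bp (score 678), had none overlapping the H3K4me3 site in ASCs, and lay 15909 bp and 29288 bp from the nearest old H3K27me3 peak. At the first of the pair, ASC H3K27me3 was called on the young H3K27me3 peaks on both sides of the site, away from the H3K4me3 peak itself.

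In old QSCs most of the sites had H3K4me3. An old H3K4me3 peak overlapped 402 of the 437 sites (92.0%, 89.1 to 94.2), compared with 98.4% (97.8 to 98.8) of the retaining sites and 80.5% of all young QSC H3K4me3 peaks. The condition of H3K4me3 in ASCs raised this share. Without it, old H3K4me3 was present at 77.4% (73.8 to 80.7) of the 562 bivalent peaks without old H3K27me3. That interval holds the 80.5% of all peaks. At 394 sites with 1 old peak, it was wider in old than in young QSCs at 256 (65.0%), close to the 67.5% of all young QSC H3K4me3 peaks, and at 70.6% of the retaining sites. The median log2 ratio of old to young width was 0.05 (0.04 to 0.07) at the sites without old H3K27me3 and 0.10 (0.09 to 0.12) at the retaining sites. The median old H3K4me3 score was 2006 (1540 to 2327), again above that of the retaining sites, at 1066 (981 to 1140).

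The 35 sites without old H3K4me3 mostly had weak H3K4me3 in young QSCs, with chr13:74665621-74668823, at a score of 3100, as an exception. Their young H3K4me3 peaks were 809 bp wide (746 to 906) with a score of 82.3 (65.8 to 122) at the median, and 21 of them scored under 100. In the lowest quintile of young H3K4me3 score, old H3K4me3 was present at 65.5% (54.8 to 74.8) of the sites without old H3K27me3 and 92.6% (90.1 to 94.6) of the retaining sites. In the upper quintiles it was present at 91.7% to 100% of the former. Of the 35 sites, 27 had H3K27me3 in ASCs, compared with 326 of the 402 sites with old H3K4me3 and 26% of all H3K4me3 peaks.

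Sorted by what was called later, 326 sites (74.6%) had H3K27me3 in ASCs and H3K4me3 in old QSCs, 76 (17.4%) had old H3K4me3 without ASC H3K27me3, 27 (6.18%) had ASC H3K27me3 without old H3K4me3, and 8 (1.83%) had neither. Among the retaining sites the same classes held 96.7%, 1.71%, 1.56% and 0.038%.

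**Figure D3:**
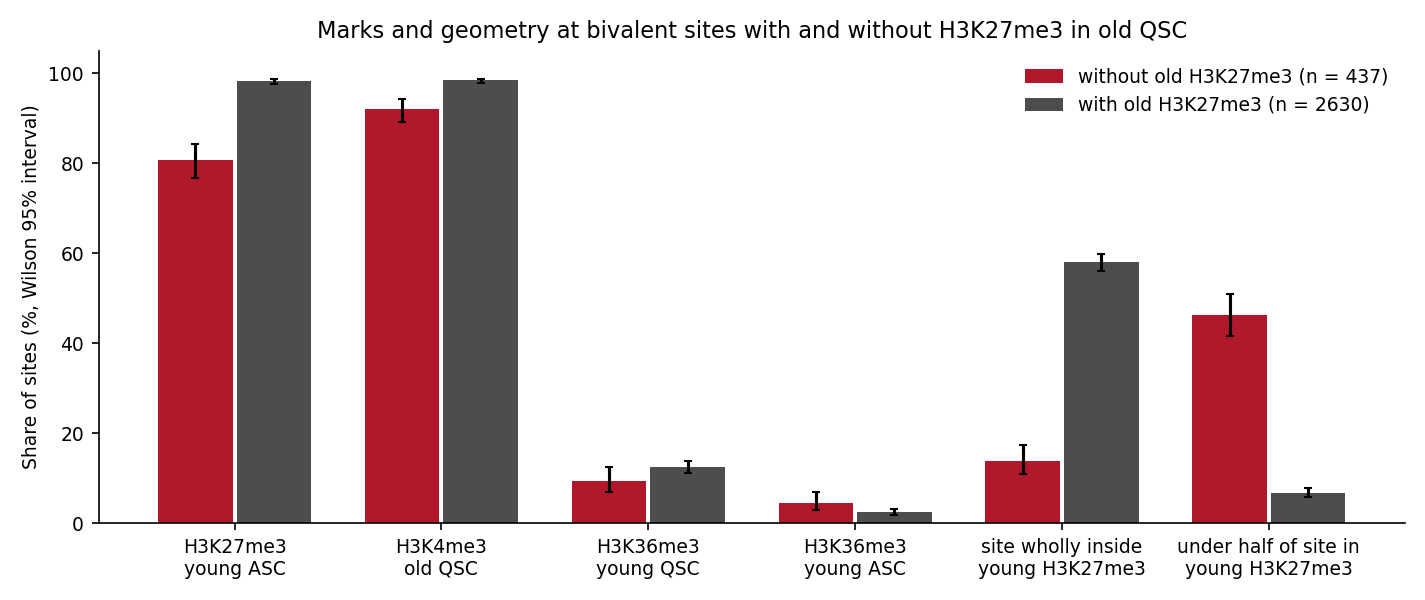
Share of sites, in percent, with the named peak or arrangement among the 437 sites without old H3K27me3 (red) and the 2630 retaining sites (grey); whiskers are Wilson 95% intervals. H3K27me3 in ASCs (80.8% against 98.3%) and full cover by young H3K27me3 (13.7% against 57.9%) are lower at the sites without old H3K27me3, and cover of under 50% is more frequent (46.2% against 6.81%).

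At a small number of sites the called H3K4me3 width differed between young and old QSCs by much more than at the median site. Each young peak was set beside the widest peak that overlapped it. Whether other young peaks lay under the same broad peak was not examined, so joined peaks cannot be told from wider ones. The widest gain was at chr12:114015521-114016509, where H3K4me3 measured 989 bp in young QSCs, 4434 bp in ASCs and 9149 bp in old QSCs, a log2 ratio of old to young of 3.21. At chr15:102813970-102814640 H3K4me3 measured 671 bp with a score of 54.7 in young QSCs, against 5409 bp in ASCs and 3861 bp in old QSCs, both at a score of 3100, and H3K27me3 of 485 bp was called in young QSCs alone. At chr13:115246206-115246969 the widths were 764 bp in young QSCs, 5169 bp in ASCs and 5013 bp in old QSCs, again with no H3K27me3 in ASCs. At these 3 places a small young peak lay under a broad one in both other cell states, but at the other 2 of the 5 largest gains the ASC peak was not as broad, measuring 1594 bp and 628 bp against 5324 bp and 3153 bp in old QSCs. The opposite was seen at chr2:117936046-117939246, where H3K4me3 fell from 3201 bp to 1361 bp in old QSCs while it measured 4282 bp in ASCs, and at chr16:4648198-4650319, where it fell from 2122 bp to 1106 bp.

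Old H3K27me3 was not called either at a spot within a young domain that old peaks still partly marked, or anywhere on that domain. This split describes the selection, since young and old H3K27me3 peaks both entered it and an old peak on the site was barred. It went with young H3K27me3 width. An old peak elsewhere was met at 0.901% of the sites in the narrowest decile and 100% in the widest. At 57 of the 437 sites (13.0%, 10.2 to 16.5) the young H3K27me3 peak met an old one elsewhere along its length, and at the other 380 it met none. The young H3K27me3 peak of the 57 sites was broad and strong (median 4280 bp and score 615), old peaks covered a median of 28.5% of it, and the H3K4me3 peak in it was weak, with a median score of 254 (187 to 423). The other 380 had young H3K27me3 peaks of 1316 bp and score 113, and a median H3K4me3 score of 1213 (1020 to 1564). ASC H3K27me3 was found at 84.2% (72.6 to 91.5) of the 57 and 80.3% (76.0 to 84.0) of the 380, a difference within the intervals. At the retaining sites old peaks covered a median of 60.0% of the young H3K27me3 peak, so that old H3K27me3 was narrower there too, with a median log2 ratio of old to young width of -0.87.

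Of the 24 sites with a young H3K27me3 score of 1000 or more, 21 had an old peak on the same young domain. The young H3K27me3 peaks of the 24 were also wide, at a median of 6678.5 bp. A median of 732.5 bp of young H3K27me3 lay on the H3K4me3 peak. The part of score apart from width was not tested. The 3 sites at a score of 3100 were chr5:28488400-28489158, chr5:42158058-42159298 and chr11:97392878-97393701. At chr5:28488400-28489158 a 759 bp H3K4me3 peak of score 55.0 lay inside a 10832 bp young H3K27me3 peak, of which old peaks covered 56.4%, the nearest being 1608 bp away, and H3K4me3 was not called in old QSCs. At chr5:42158058-42159298 the young H3K27me3 peak was 9839 bp wide, old peaks covered 37.6% of it and the nearest was 2034 bp away, and old H3K4me3 of 1129 bp was present. At chr11:97392878-97393701 the young H3K27me3 peak was 9421 bp wide, old peaks covered 51.1% of it and the nearest was 281 bp away. All 3 had ASC H3K27me3 at the 3100 ceiling.

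Only 3 sites with a score of 1000 or more had no old H3K27me3 on the same young peak, and these were picked out after their values were seen. At chr5:36508000-36509230 a 1231 bp H3K4me3 peak of score 93.9 lay between 2 young H3K27me3 peaks, the wider of 8096 bp and score 1448, and the nearest old H3K27me3 peak was 56793 bp away. At chr11:82742144-82747600 a 5457 bp H3K4me3 peak, the widest among the 437 sites, was met at its edge by a 4620 bp H3K27me3 peak of score 1065, with the nearest old peak at 14359 bp. At chr8:107064258-107066493 a 2236 bp H3K4me3 peak of score 2065 lay wholly inside a 4176 bp H3K27me3 peak of score 1048, with the nearest old peak at 30185 bp. All 3 had H3K27me3 in ASCs and H3K4me3 in old QSCs, although at chr5:36508000-36509230 the ASC H3K27me3 covered only 0.325% of the H3K4me3 peak.

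**Figure D4:**
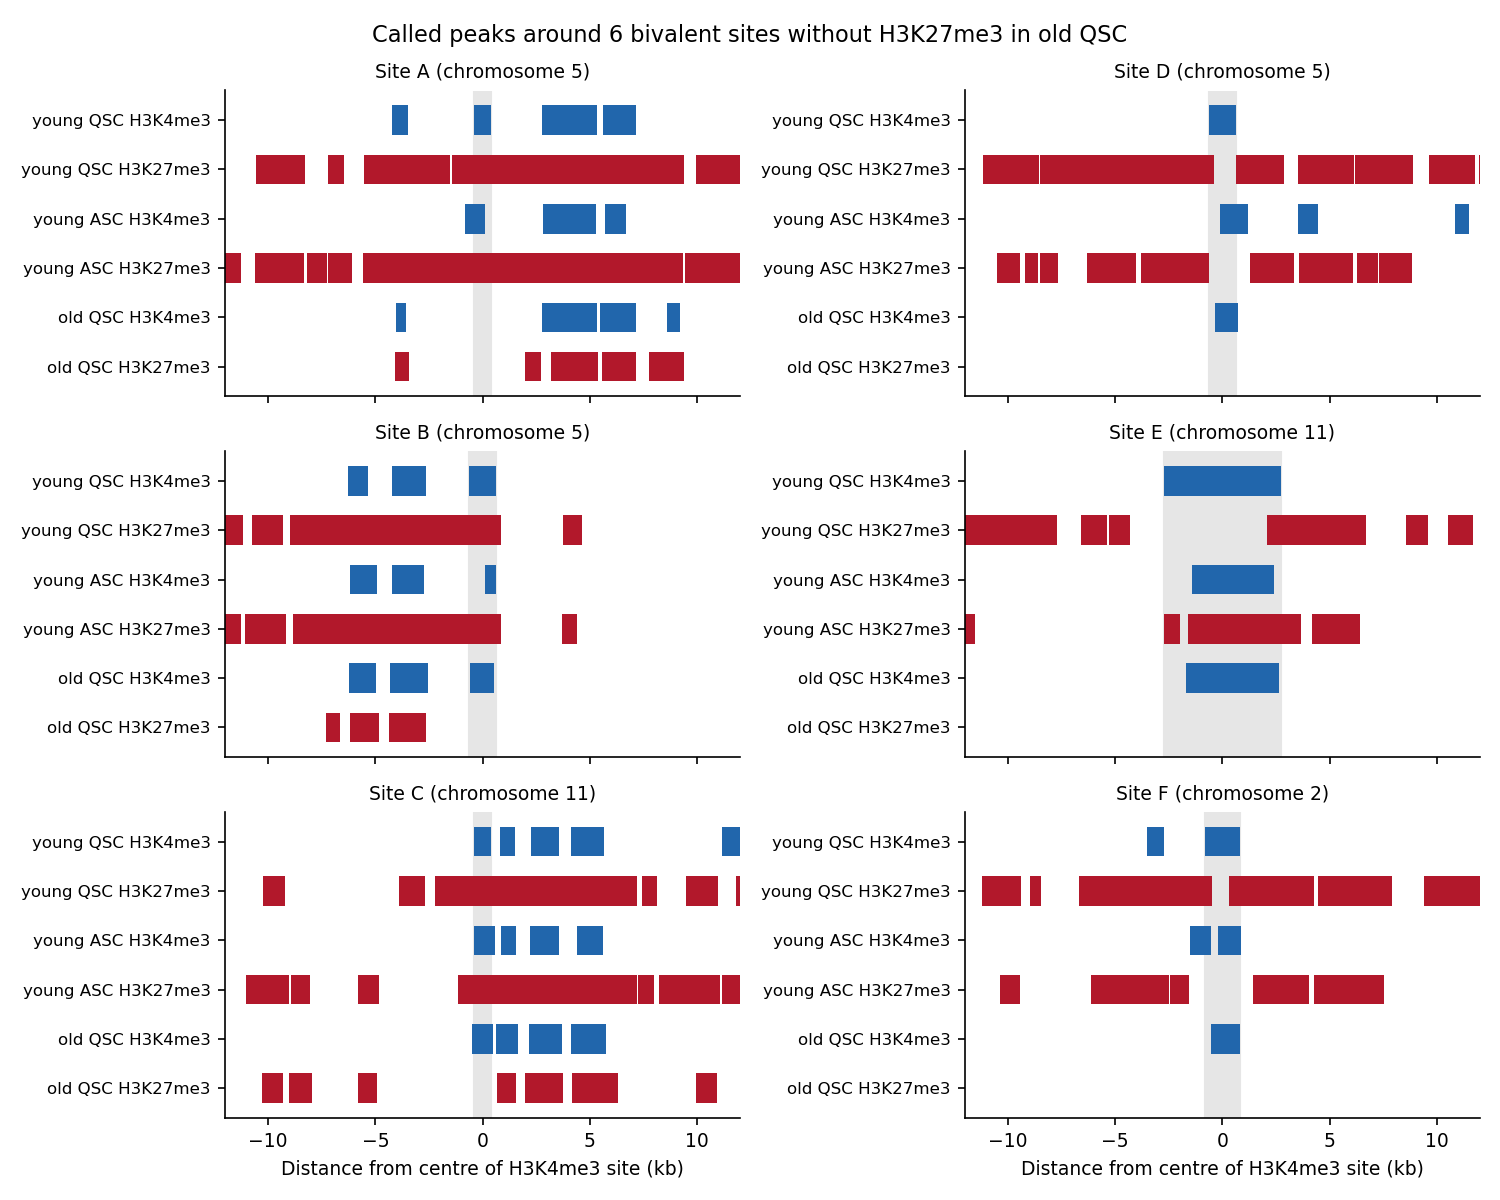
Called peaks within 12 kb of 6 sites without old H3K27me3, with distance from the centre of the H3K4me3 site in kb; H3K4me3 is blue, H3K27me3 is red, and the grey band is the young QSC H3K4me3 site. Sites A to C are chr5:28488400-28489158, chr5:42158058-42159298 and chr11:97392878-97393701, where old H3K27me3 remains beside the site, and sites D to F are chr5:36508000-36509230, chr11:82742144-82747600 and chr2:92871840-92873505, where no old H3K27me3 is called in the window.

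The distance to the nearest old H3K27me3 peak ranged from 9 bp to 860506 bp, with a median of 17186 bp. It was at most 1 kb at 45 sites (10.3%), at most 5 kb at 130 (29.7%, 25.7 to 34.2) and over 50 kb at 126 (28.8%). For all young QSC H3K4me3 peaks these shares were 22.2%, 26.3% and 42.9%, and the median distance was 36046 bp. Of all 24701 peaks, 6491 lay within 5 kb, but 5221 overlapped old H3K27me3 itself, and the selection removed such peaks from the sites. The shares at short distances are therefore bounded by the selection. They do not show whether the sites lay nearer to old H3K27me3 than other peaks without it. Sites close to old H3K27me3 had stronger young H3K27me3 and weaker H3K4me3 than distant ones. Up to 500 bp away, the median H3K27me3 score was 422 and the median H3K4me3 score 195, and beyond 100 kb they were 91.8 and 1850. The share with ASC H3K27me3 showed no such order, at 82.8% (65.5 to 92.4) of the 29 nearest and 87.3% (78.2 to 93.0) of the 79 farthest.

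**Figure D5:**
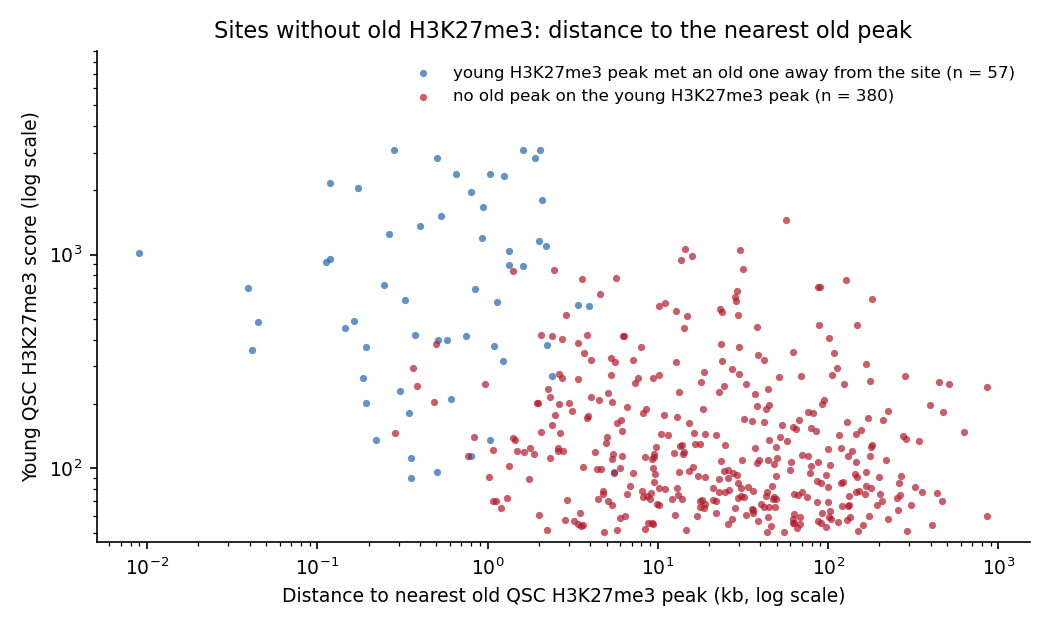
Young QSC H3K27me3 score against the distance in kb to the nearest old QSC H3K27me3 peak, both on log scales, for the 437 sites; blue points are the 57 sites whose young H3K27me3 peak met an old one elsewhere, red points the other 380. The blue points lie within 5482 bp and hold 21 of the 24 scores of 1000 or more.

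Close to the boundary of the selection, membership turned on a few bases. The 4 sites under 100 bp from an old H3K27me3 peak lay 9, 39, 41 and 45 bp from it. The nearest, chr2:105527763-105528602, sat at the end of the widest young H3K27me3 peak of all 437, at 26702 bp, of which old peaks covered 31.3%. Just inside the retaining group, 8 sites shared under 100 bp with an old peak, the fewest being 3 bp at chr11:96172627-96173457, 9 bp at chr11:60322228-60323516 and 11 bp at chr2:9810568-9811151. The first of these had a young H3K27me3 peak of 8842 bp and score 923 and an old peak of 1047 bp, values like those of the broad-domain sites without old H3K27me3.

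H3K36me3, which was not used in the selection, was uncommon at these sites, as it was at all young QSC H3K4me3 peaks. In young QSCs it overlapped 41 of the 437 (9.38%, 6.99 to 12.5), compared with 12.4% (11.2 to 13.7) of the retaining sites and 12.9% of all young QSC H3K4me3 peaks. In young ASCs it overlapped 20 (4.58%, 2.98 to 6.96), compared with 2.43% (1.91 to 3.10) of the retaining sites and 6.76% of all H3K4me3 peaks. The intervals of the 2 bivalent groups overlap in both cell states. The low shares went with the condition of H3K4me3 in ASCs. Without it they were 15.3% (12.6 to 18.5) in QSCs and 7.12% (5.27 to 9.55) in ASCs, with intervals that hold the values of all peaks. Of the 41 sites with H3K36me3 in young QSCs, 39 had H3K27me3 in ASCs, against 80.8% of all 437 sites and 26% of all H3K4me3 peaks. H3K36me3 in ASCs as well was called at 15 of the 41, against 4.58% and 6.76%. At 1 of the 41 the young H3K27me3 peak met an old peak, against 57 of the 437. Other H3K4me3 peaks with H3K36me3 were not compared. All 3 marks were called with scores near the top of their lists at chr13:74665621-74668823, where young QSC H3K4me3 and H3K36me3 both scored 3100 over 3203 bp and 3474 bp and H3K27me3 scored 944 over 3136 bp. In ASCs the H3K4me3, H3K27me3 and H3K36me3 scores there were 138, 629 and 229, and neither H3K4me3 nor H3K27me3 was called there in old QSCs. Marks called in separate libraries at the same place need not lie on the same chromosomes or in the same cells, and this was not tested.

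The sites were spread over the genome and lay on 20 chromosomes, 435 on autosomes and 2 on the X chromosome, where 26 bivalent peaks met the conditions in young cells. Within 50 kb of each other, 57 sites formed 25 runs, the longest of 3 sites. A retaining site lay within 10 kb of 88 sites, and 45 sites shared their young H3K27me3 peak with a retaining site. These counts of runs and neighbours were not compared with those of other bivalent peaks. Beneath the 437 sites lay 464 young H3K27me3 peaks, of which 6 reached under 2 of the sites, so the sites are not fully independent of each other.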

How the data were processed

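ChIP-seq used antibodies to H3K4me3, H3K27me3 and H3K36me3, and the authors called peaks per library. The submitters' processing notes name Bowtie and the build mm9. The peak names are those MACS writes, and its version is not given in the sources used here. In each list the deposited columns give a peak's chromosome, start and end in bp and a score of -10 log10 of the p-value, with a minimum of 50. Peak width and score depend on depth, which is unknown, and on the input, so scores of different libraries, where given together, are not on a common scale.

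All 8 lists were used, 1 per cell state and mark, and the 3 input libraries were not used. Overlaps of at least 1 bp were computed with Python 3.11.15, pandas 2.3.3 and numpy 2.4.6, and tested on simulated peaks, where 600 of 600 planted overlaps among 2000 peaks were found, and against bedtools 2.31.1, with equal counts in 5 of 5 pairs of lists. Intervals used scipy 1.17.1. No filter on score was applied to the values reported. Positions are 1-based. Named sites were the 8 with the highest young H3K27me3 score, the 8 widest, the 5 nearest to an old peak, the 5 retaining sites with the fewest shared bases, the 5 with the highest H3K36me3 score and the 5 with the largest change in H3K4me3 width in each direction. Only some of them are described. Sites without an old peak on the young domain or without ASC H3K27me3 were added after the values were seen. The members, comparisons and lists were chosen with earlier results of these data known. No gene positions, base composition or sequences were used, since no mm9 genome was at hand.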

Additional observations from a re-analysis of the deposited data

How the results depend on the processing

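No paired analysis was possible because each cell state and mark had 1 library. Of 116 values recomputed under the alternatives, 69 stayed within their interval (counts within 1.5 times) and 47 moved. The cause was not tested.

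With scores of at least 100 in all lists, the share of bivalent peaks without old H3K27me3 was 17.8% and 40.2% in the lowest H3K27me3 quintile, and for these sites the median H3K27me3 width was 1885 bp and score 226, H3K4me3 width 1656 bp, ASC H3K27me3 87.5%, old H3K4me3 96.8%, an old peak within 5 kb 23.3% and young H3K36me3 4.41%. With this minimum in the young lists only, 223 sites were left in place of 437, with a share of 9.71%, 24.8% in the lowest quintile, widths of 1938 bp and 1657 bp, score 202, old H3K4me3 97.3%, an old peak within 5 kb 35.0% and H3K36me3 5.83%. With equally long lists of top-scoring peaks per mark, the share was 18.9%, 46.1% in the lowest quintile, ASC H3K27me3 74.6%, old H3K4me3 95.1%, a partly marked domain (a young H3K27me3 peak that met an old one elsewhere) 9.24% and an old peak within 5 kb 21.6%. An overlap of 50% of the shorter peak gave a share of 11.5%, H3K27me3 width 1265 bp and score 114. Merging peaks under 1 kb apart gave 1680 bp and 23.3% with an old peak within 5 kb. Counting old peaks within 1 kb as present gave a share of 12.8%, 1.14% in the highest quintile, 5.10% with a partly marked domain and 21.7% within 5 kb. Without the ASC H3K4me3 condition, the share was 16.3%, 5.08% in the highest quintile, H3K4me3 width 1412.5 bp, old H3K4me3 77.4%, and H3K36me3 15.3% in QSCs and 7.12% in ASCs. In alternatives added after seeing the data, requiring no old H3K27me3 anywhere on the young peak gave 12.4%, 0.163% in the highest quintile, 1316 bp, score 113 and 19.5% within 5 kb, and counting each young H3K27me3 peak 1 time gave 0.904% in the highest quintile, 7.18% with a partly marked domain and 24.5% within 5 kb. In each alternative the share was higher in the lowest quintile than in the highest.

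The planned count of sites at annotated gene starts was not run, and neither was base composition. Depth limits what is called, so a mark that is not called at a weak site was not detectable in that library, which is not the same as absent.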
